A study of Mus musculus with 9 samples.

Results

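Satellite cells grown at P0 in a medium with 4 added cytokines were compared with satellite cells grown at P0 in F10 medium, across 552 genes. The genes were chosen by position and level. A row of the deposited table was used where its name fitted its values, which was the case up to a limit on 8 chromosomes of mm10. On chromosome 16 that stretch takes in most of the chromosome's rows, and on the others only its beginning. The gene also had to reach 1 RPKM (reads per kilobase of gene length, normalized to library depth) in at least 1 of the 9 libraries. Of 11148 rows in all, 764 lie in these stretches and 552 reached 1 RPKM. They comprised 320 genes on chromosome 16 below 92.1 Mb, 105 on chromosome 19 below 6.4 Mb, 53 on chromosome 8 below 15.1 Mb, 27 on chromosome 5 below 12.6 Mb, 17 on chromosome 9 below 7.9 Mb, 13 on chromosome 3 below 10.2 Mb, 11 on chromosome 18 below 6.3 Mb and 6 on chromosome 17 below 5.9 Mb. Values of 1 RPKM or more were seen in 529 of the 552 genes in F10 or cytokine medium at P0, and the other 23 entered through other libraries.

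The study grew satellite cells, the stem cells of skeletal muscle, from the limb muscles of newborn mice and measured RNA by sequencing. The cells came from C57/BL6/DBA mice of 1 to 3 days of age, with males and females pooled, and all cultures were on dishes coated with collagen. The labels give no genetic change. F10 is a nutrient mixture for cell culture, and the serum and fibroblast growth factor (FGF) given to the F10 library are not stated in the labels. Cytokine medium was F10 with 15% fetal bovine serum, 2.5 ng/ml FGF and 4 cytokines, of which IL-1α and IL-13 were each at 5 ng/ml and IFN-γ and TNF-α each at 10 ng/ml. A difference between these media therefore cannot be told apart between the cytokines, the serum and FGF. T cell medium mixed conditioned medium of T cells with F10 containing 15% serum in equal parts of 50% each and had the same FGF dose. It was used at P0, and T cell medium and cytokine medium were both used at P1, P2 and P15. Each of the 9 combinations of medium and passage is 1 library, so no p-value is given, and intervals beside a fold are 95% exact binomial intervals that cover counting error only. In bulk RNA, fewer cells of a type and less RNA per cell cannot be told apart.

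IFN-γ signals through JAK kinases and induces interferon response factors, antigen presentation genes and the feedback inhibitor SOCS1. IL-1α and TNF-α signal through NF-κB, whose targets include matrix metalloproteinases, inhibitors of apoptosis and feedback regulators, and IL-13 signals through STAT6. In skeletal muscle these cytokines come from immune cells that enter after injury, and Notch signalling is known to hold satellite cells in an undifferentiated state.

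The run 1 columns were scaled to totals of 14.8 M reads for F10 medium and 15.1 M for cytokine medium. Over the 9 libraries these totals ranged from 13 to 18.2 M. They were found from the steps between low values and the annotated exon lengths, which fitted within 0.01% in 50.3% of rows. The rows themselves held 1.78 M reads in run 1 of F10 and 1.84 M in run 1 of cytokine medium. The 2 numbered columns of each library, called runs here, differed by less than the sampling noise (chi-square per row 0.457 to 0.488) and were averaged as 1 sample. The same measure was 17.2 between F10 and cytokine medium at P0. Of the protein-coding rows, 72.4% of 760 inside the stretches and 30.3% of 10300 outside them reached 1 RPKM. Of widely expressed genes, 19 of 20 inside and 3 of 4 outside did so, so this smaller list hardly separated the stretches from the rest. Among markers of satellite cells the only one in the stretches, Chodl, was at 0.0362 RPKM in F10 and 0 in cytokine medium, so the cell type label was not checked by defining markers. The 3 genes of differentiating muscle summed to 63.8 RPKM in F10 and 25.6 in cytokine medium. Of other cell types, the macrophage gene Cd86 was at 0 in both, the smooth muscle gene Myh11 at 0.400 and 0.0262, the adipocyte genes Adipoq at 0.0245 and 0 and Retn at 0 in both, and the fibroblast gene Apod at 0.068 and 0. No marker of endothelium lay in the stretches. Markers of 3 other types reached 1 RPKM only in part. The 2 measured T cell genes summed to 3.54 RPKM in F10 and 1.80 in cytokine medium, with Ctsw at 3.32 and 1.26 but Btla at 0.217 and 0.539, and Trat1 was at 0 in both. The 2 measured nerve and glia genes summed to 4.79 and 3.76, with Stmn2 at 2.36 and 0.799 but Gap43 at 2.44 and 2.96. The fibroblast gene Cd248 was at 1.27 and 0.471. The T cell and nerve markers thus went both ways, and the part of any of these markers in the differences below was not tested.

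Cytokine medium had 26 genes at least 2-fold higher than F10 medium (4.71% of 552) and 16 genes at least 2-fold lower (2.9%), on the scale of log2(RPKM + 1). Among all 3686 rows of the table at 1 RPKM, named or not, 2.06% were higher and 1.49% lower by that measure. The shares of the 552 genes are the background for every list count below. The median difference over the 552 genes was -0.01, and 456 of them (82.6%) lay within 0.5 of 0. The higher genes were led by Parp14, Parp9, Dtx3l and Batf2, which are known interferon-induced genes, followed by Casp12, Nfkbiz, Mmp3 and Socs1. The lower genes were led by both chains of the basement membrane collagen, Col4a1 and Col4a2, by the glycogen phosphorylase Pygm, by Gas6 and by the Notch effectors Hes1 and Hey1. Chromosome 16 held 15 of the 26 and 7 of the 16, chromosome 9 held 5 of the higher genes and none of the lower, and chromosome 8 held 3 of the lower genes and none of the higher. Of all 552 genes, chromosome 16 held 320, chromosome 9 held 17 and chromosome 8 held 53.

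**Figure D1:**
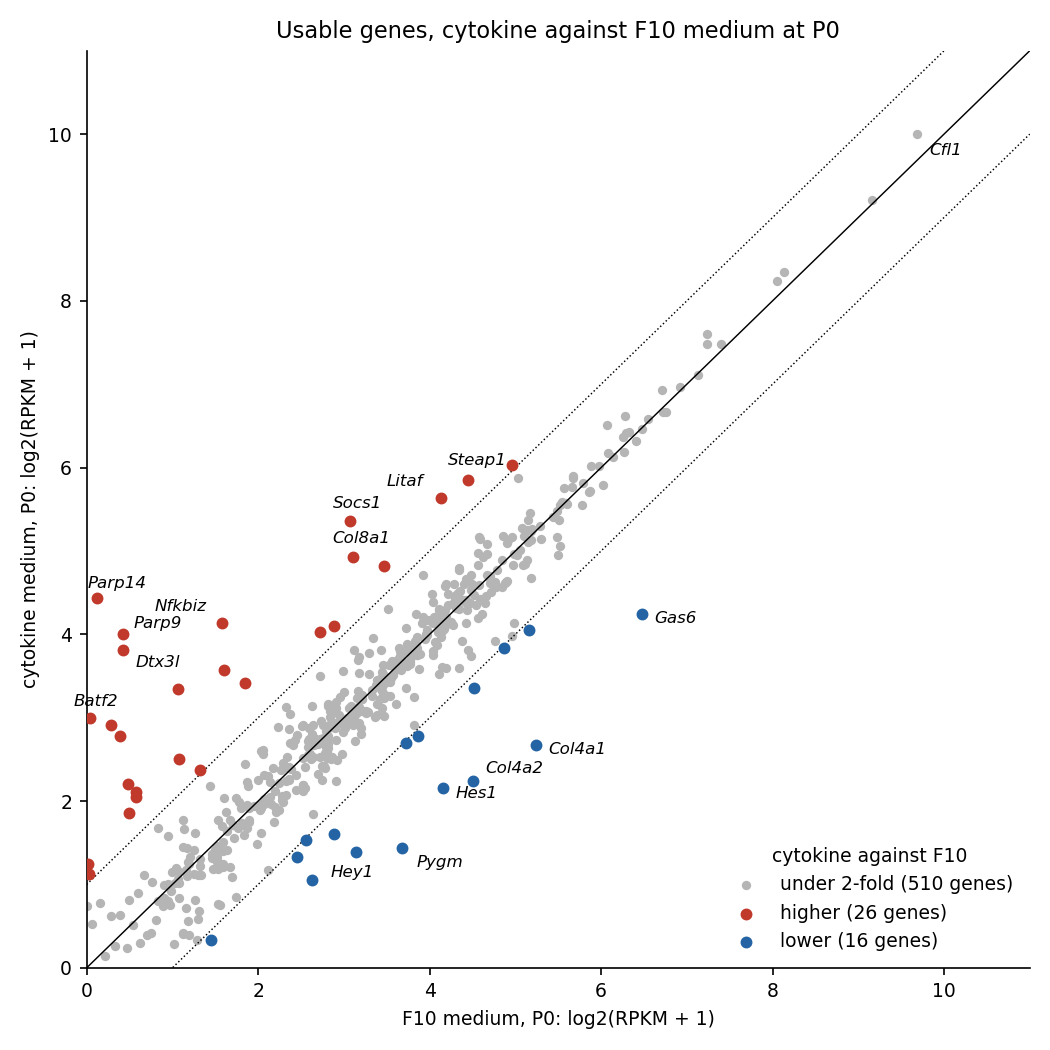
Each point is 1 of the 552 genes, with log2(RPKM + 1) in F10 medium on the x axis and in cytokine medium on the y axis, both at P0, and dotted lines mark a 2-fold difference. The 26 higher genes stand above the upper line and include many that were close to 0 in F10 medium, whereas most of the 16 lower genes had over 4 RPKM there.

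The interferon list held the largest differences. It was chosen from known interferon-responsive genes, 12 of its 46 members lie in the usable stretches and 10 reached 1 RPKM. Of these, 8 were at least 2-fold higher and none lower, with a median difference of 2.13. Over all 552 genes the median was -0.01, with 4.71% higher and 2.9% lower. Parp14, Parp9, Dtx3l, Batf2 and Ciita were below 1 RPKM in F10 but above it in cytokine medium at P0, where they are called higher. Casp4 was below 1 RPKM in both and entered through other libraries. Casp1 and Cd86, left out by the filter, were at 0 RPKM in F10 and at 0.0921 and 0 in cytokine medium. The share and median thus depend in part on the filter, and the list was drawn up with earlier results known. Parp14, Parp9 and Dtx3l are neighbours on chromosome 16. Parp14, a mono-ADP-ribosyltransferase (chromosome 16, 35832874 to 35871544), was at 0.0912 RPKM in F10, 4.52 in T cell and 20.6 in cytokine medium at P0. At P1, P2 and P15 it was at 30.1, 28.7 and 18.1 RPKM in cytokine medium and at 6.19, 7.72 and 6.35 in T cell medium. F10 medium stood far below the other 8 libraries, and cytokine medium was above T cell medium at every passage. Run 1 held 12 reads of Parp14 in F10 and 2865 in cytokine medium, a 226-fold difference with an interval from 129.2 to 438.

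Dtx3l, a ubiquitin ligase that forms a complex with PARP9, was at 0.346 RPKM in F10, 6.81 in T cell and 13.1 in cytokine medium at P0, 37.7-fold higher in cytokine than F10 medium (interval 26.0 to 57.2). Parp9 was at 0.341, 6.57 and 15.0 RPKM in the same order, 44.1-fold higher (28.9 to 67.8). The exons of Parp9 and Dtx3l overlap, over 9.4% of those of Parp9, and reads there cannot be assigned to either gene. Both genes had 13.1 RPKM or more in cytokine medium, with Dtx3l at 18.2, 18.9 and 16.5 and Parp9 at 17.2, 19.7 and 19 at P1, P2 and P15. In T cell medium they lay between 6.52 and 10.2 RPKM at every passage.

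Batf2, a basic leucine zipper transcription factor on chromosome 19 (6140983 to 6172476), had 0 reads in run 1 and 2 reads in run 2 of the F10 library. It was at 0.0293 RPKM in F10, 1.62 in T cell and 6.97 in cytokine medium at P0, a ratio of 238 whose interval runs from 44.4 to 9894. Later it was at 16.6, 20.9 and 11.3 RPKM in cytokine medium at P1, P2 and P15 and at 3.14, 1.84 and 3.14 in T cell medium. Cytokine medium held the 4 highest values of the 9 libraries. Ciita, the master regulator of MHC class II genes, had 1 read in each run of the F10 library and 112 and 98 reads in cytokine medium. Ciita was at 0.0135 RPKM in F10, 0.637 in T cell and 1.37 in cytokine medium at P0, a ratio of 102 with an interval from 18 to 4081. Its levels stayed between 0.97 and 1.41 RPKM in cytokine medium at the later passages and between 0.181 and 1.11 in T cell medium. Rtp4, an interferon-induced chaperone of receptors, was at 2.04, 8.45 and 10.9 RPKM at P0 in F10, T cell and cytokine medium, with cytokine medium 5.35-fold above F10 (3.86 to 7.42).

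Socs1, the feedback inhibitor of JAK kinases, was already present in F10 medium at 7.38 RPKM and was at 17.1 RPKM in T cell and 40.1 in cytokine medium. In cytokine medium it was at 50.1, 41.5 and 36.5 RPKM at P1, P2 and P15 and at 16.7, 15.7 and 13.3 in T cell medium. The cytokine libraries were all above 36 RPKM and no other library exceeded 17.1. Cytokine against F10 medium at P0 was 5.44-fold (4.49 to 6.6). The RefSeq promoter of Socs1, 250 bases before to 50 after the start, is shown because it holds 2 overlapping matches to the interferon-stimulated response element, in capitals, the nearer of them beginning 77 bases before the start (GRCm38.p6, chr16:10785487-10785786, minus strand).
Socs1: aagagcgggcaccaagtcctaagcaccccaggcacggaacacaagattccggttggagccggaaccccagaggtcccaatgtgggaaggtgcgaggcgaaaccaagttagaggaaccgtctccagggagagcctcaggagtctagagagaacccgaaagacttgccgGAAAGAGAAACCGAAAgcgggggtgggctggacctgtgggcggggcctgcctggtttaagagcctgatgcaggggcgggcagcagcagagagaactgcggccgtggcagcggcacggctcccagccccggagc

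Motifs were searched on both strands in 300-base promoters and are descriptions of letters only. GAAA and GAAA set apart by any 2 bases, the interferon-stimulated response element, was in 3.44% of all 32851 RefSeq promoters and in 2 of the 17 higher genes that have an entry, Socs1 and Mmp13. TTCNNNGAA, the gamma-activated sequence of IFN-γ target genes, was in 8.3% of all promoters and in 3 of the 17, Casp12, Steap2 and Steap4. GGG and TTTCC set apart by any 2 bases, a κB site, was in 1.63% of all promoters and in 2 of the 17, Ifngr2 and Steap4. None of these 3 motifs was in the promoters of the 11 lower genes that have an entry. Over the 427 members with an entry the shares were 2.58%, 7.73% and 1.64%, near those of all promoters. No entry matched Batf2, Ciita, Leprel1, Nfkbiz, Parp14, Parp9, Pla1a, Rtp4 and Tvp23a among the higher genes and Cst6, Hes1, Hey1, Pkia and Srl among the lower.

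Of cytokine receptors and signal transducers, 9 of 43 listed genes lay in the stretches and all 9 reached 1 RPKM. At least 2-fold higher were 4.71% of all 552 genes and 1 gene of these 9. That gene was Ifngr2, the signalling chain of the IFN-γ receptor, at 2.61 RPKM in F10, 4.26 in T cell and 9.69 in cytokine medium at P0, 3.72 times its F10 level (3.04 to 4.58). Ifngr2 was at 9.93, 7.44 and 5.61 RPKM in cytokine medium at P1, P2 and P15 and at 2.62, 3.65 and 3.48 in T cell medium. The cytokine libraries thus held the 4 highest levels. The other receptor chains differed less. Il1rap, the shared chain of the IL-1 receptor, was at 0.778 RPKM in F10 and 2.19 in cytokine medium, a difference of 0.85 on the log2 scale that made it the higher gene closest to 2-fold without reaching it. Its ratio of RPKM was 2.82 (2.30 to 3.49), and it fell below the 2-fold line because of its low level on this scale. Ifnar2 and Ifnar1, the chains of the type I interferon receptor, differed by 0.59 and 0.29, and Il10rb by 0.53. Rela, the p65 subunit of NF-κB, was at 23 RPKM in F10 and 34.5 in cytokine medium (0.56). The median of the 9 was 0.56. Of 13 listed IL-13 and STAT6 targets only Socs1 and Bcl6 were measured, and the repressor Bcl6 was at 5.68 RPKM in F10 and 4.36 in cytokine medium (-0.32).

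Of NF-κB targets and regulators, 11 of 38 listed genes were in the stretches, and all 11 reached 1 RPKM. Of the 11, 7 were at least 2-fold higher and none lower, with a median difference of 1.47. Over all 552 genes 4.71% were higher and 2.9% lower. Mmp3, Birc3, Mmp13, Mmp10 and Steap4 were below 1 RPKM in F10 but above it in cytokine medium at P0. The count thus includes genes that can pass the filter through the library where they are high. Map3k8 and Adamts5 were below 1 RPKM in both and entered through other libraries. Nfkbiz encodes IκBζ, a nuclear regulator of secondary NF-κB responses. It was at 1.98 RPKM in F10, 12.3 in T cell and 16.5 in cytokine medium at P0, which put cytokine medium 8.36-fold above F10 (7.03 to 10.1). Nfkbiz was then at 21.3, 30.3 and 33.0 RPKM in cytokine medium at P1, P2 and P15 and at 12.7, 24.7 and 26.8 in T cell medium, so every library other than F10 was above 12 RPKM. Litaf, an endosomal regulator linked to the TNF response, was at 16.6, 29.4 and 48.5 RPKM in F10, T cell and cytokine medium at P0 (2.93-fold, 2.67 to 3.21). Birc3, a ubiquitin ligase that inhibits apoptosis downstream of TNF receptors, was at 0.402, 0.648 and 3.59 RPKM (8.95-fold, 6.17 to 14). Its close relative Birc2, which lies beside it on chromosome 9, was at 5.23 RPKM in F10 and 5.73 in cytokine medium, a difference of 0.11. At the later passages Birc3 was at 3.15, 2.61 and 1.06 RPKM in cytokine medium and at 0.291, 0.57 and 0.607 in T cell medium. T cell medium at P0 was near F10 for Birc3 and between the others for Litaf. The kinase Map3k8 was at 0.117 RPKM in F10 and 0.71 in cytokine medium (0.61), below the 2-fold line because of its low level on this scale, with a ratio of RPKM of 6.08 (2.62 to 13.8).

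Matrix metalloproteinases, the enzymes that cleave extracellular matrix, lie as a cluster in the chromosome 9 stretch. Of 22 listed metalloproteinases and ADAMTS enzymes, 9 lay in the stretches and 5 reached 1 RPKM. Of the 5, 3 were at least 2-fold higher and none lower (median 1.47). All 5 are also in the NF-κB list above, so this is not a separate result. Mmp3, Mmp10 and Mmp13 were below 1 RPKM in F10 but above it in cytokine medium at P0, where they are called higher. Adamts5 was below 1 RPKM in both and entered through other libraries. The filter left out Mmp8 (0.0577 RPKM in F10, 0.0135 in cytokine medium), Mmp12 (0.0051, 0.0191), Mmp1a (0, 0) and Adam22 (0.078, 0.0196). The share and median thus depend in part on the filter. Mmp3, a stromelysin, was at 0.313 RPKM in F10, 1.78 in T cell and 5.86 in cytokine medium at P0, with a ratio of cytokine to F10 medium of 18.7 (9.23 to 44.0). Mmp3 was at 8.08, 9.42 and 0.446 RPKM in cytokine medium at P1, P2 and P15 and at 0.162, 0.0354 and 0.0736 in T cell medium. It was high in cytokine medium up to P2 and low at P15.

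Mmp13, a collagenase, was at 0.489, 1.60 and 3.32 RPKM in F10, T cell and cytokine medium at P0 (6.80-fold, 4.25 to 12.2), and Mmp10, a second stromelysin, at 0.49, 0.432 and 3.14 RPKM (6.4-fold, 3.43 to 12.8). In cytokine medium at P1, P2 and P15 Mmp13 was at 16.6, 72.0 and 6.4 RPKM and Mmp10 at 22.8, 52.0 and 13.7. In T cell medium Mmp13 was at 1.10, 0.893 and 6.17 RPKM and Mmp10 at 0.601, 0.185 and 10.3. Both enzymes were highest in cytokine medium at P2, and at P15 the media were close for Mmp13. The aggrecanases differed less, with Adamts1 at 5.01 RPKM in F10 and 6.36 in cytokine medium (0.29) and Adamts5 at 0.385 and 0.179 (-0.23).

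**Figure D2:**
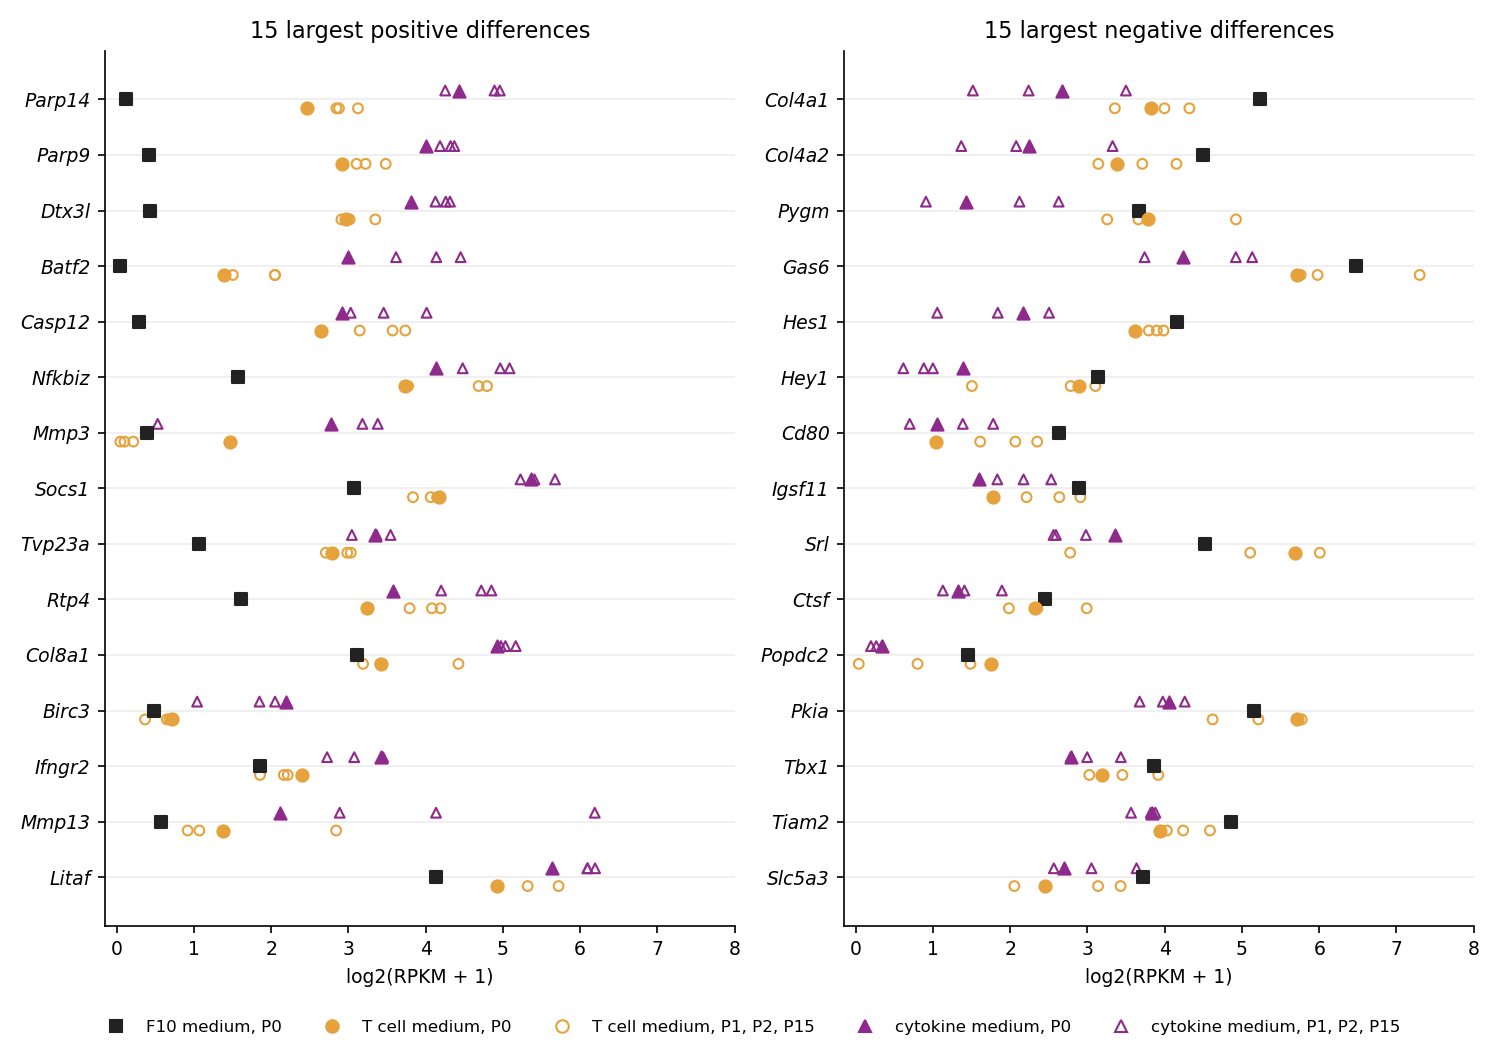
The x axis is log2(RPKM + 1) in each of the 9 libraries, for the 15 genes with the largest positive difference (left) and the 15 with the largest negative difference (right), with squares for F10, circles for T cell and triangles for cytokine medium, filled at P0 and open at later passages. For Parp14, Batf2 and Socs1 all triangles lie to the right of the circles and the square, and for Gas6 and Hes1 all lie to the left.

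Among caspases and cell death genes, 8 of 22 lay in the stretches and 6 reached 1 RPKM. Of the 6, Casp12 and Birc3 were at least 2-fold higher and none lower, against 4.71% and 2.9% of all 552 genes. Both genes were below 1 RPKM in F10 but above it in cytokine medium at P0, where they are called higher. The filter left out Casp1 (0 RPKM in F10, 0.0921 in cytokine medium) and Aifm3 (0.0151, 0). The count thus depends in part on the filter, and Birc3 is also in the NF-κB list. Casp12, an inflammatory caspase, was at 0.222 RPKM in F10, 5.26 in T cell and 6.54 in cytokine medium at P0. Cytokine medium was 29.5-fold higher than F10 medium (16.7 to 57.8). Casp12 at P1, P2 and P15 was at 7.17, 9.98 and 15.1 RPKM in cytokine medium and at 7.86, 12.3 and 10.9 in T cell medium, so these media overlapped and F10 alone was low. Casp4, the inflammatory caspase that binds lipopolysaccharide inside cells, had no reads in F10 and was at 0.676 RPKM in cytokine medium. Against a floor of 3 reads per library it was at least 11.9-fold higher. The promoter of Casp12 is shown for its 2 gamma-activated sequences, in capitals, which begin 102 and 36 bases before the start (GRCm38.p6, chr9:5345226-5345525, plus strand).
Casp12: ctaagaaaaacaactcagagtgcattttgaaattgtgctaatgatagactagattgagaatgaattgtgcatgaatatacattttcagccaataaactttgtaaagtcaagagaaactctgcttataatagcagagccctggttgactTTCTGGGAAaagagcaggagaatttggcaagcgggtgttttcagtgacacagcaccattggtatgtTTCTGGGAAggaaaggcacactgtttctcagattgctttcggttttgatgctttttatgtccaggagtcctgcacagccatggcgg

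STEAP proteins are metalloreductases that reduce iron and copper at membranes, and 3 of them lie in the chromosome 5 stretch. In the list on oxidative stress and iron, 13 of 24 genes were measured, these 3 were at least 2-fold higher and none was lower, with a median of 0.03. Of the 3, Steap4 was below 1 RPKM in F10 but above it in T cell and cytokine medium at P0. Steap1 was at 20.9 RPKM in F10, 47.3 in T cell and 56.9 in cytokine medium at P0 (2.73-fold), and Steap2 at 6.39, 13.5 and 16.1 (2.52-fold). Steap4, known to be induced by inflammatory cytokines, had 1 read in each run of the F10 library and was at 0.0225, 1.35 and 1.18 RPKM, a ratio of 52.5 with an interval from 9.05 to 2117. For all 3 genes F10 was the low library and T cell medium was close to cytokine medium at P0. Steap4 at P1, P2 and P15 was at 0.709, 1.25 and 0.409 RPKM in cytokine medium and at 0.827, 3.06 and 1.05 in T cell medium, and was lower in cytokine medium each time. The glutathione transferase Gstp1 was at 105 RPKM in F10 and 101 in cytokine medium (-0.05), and the dismutase Sod1 and the transferrin receptor Tfrc differed by -0.12 and 0.09. The promoter of Steap4 holds 1 gamma-activated sequence, in capitals, 116 bases before the start (GRCm38.p6, chr5:7960222-7960521, plus strand).
Steap4: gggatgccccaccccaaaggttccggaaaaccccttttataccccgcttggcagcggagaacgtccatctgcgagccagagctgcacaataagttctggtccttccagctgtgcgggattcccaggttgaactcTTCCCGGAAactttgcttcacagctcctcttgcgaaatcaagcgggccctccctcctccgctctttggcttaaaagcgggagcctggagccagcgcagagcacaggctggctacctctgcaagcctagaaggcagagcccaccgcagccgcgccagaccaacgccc

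Other genes at least 2-fold higher encode matrix, surface and cell cycle proteins. Col8a1, a short-chain collagen, was at 7.62 RPKM in F10, 9.69 in T cell and 29.3 in cytokine medium at P0 (3.85-fold, 3.51 to 4.24). At P1, P2 and P15 it was at 34.9, 31.7 and 30.4 RPKM in cytokine medium and at 8.13, 9.66 and 20.5 in T cell medium. All 4 cytokine libraries were near 30 RPKM and above the others. Cd47, the surface protein that inhibits phagocytosis, was at 5.62, 10.2 and 15.3 RPKM at P0 (2.72-fold). Cdk6, a cyclin D kinase, was at 10.1, 15.5 and 27.1 RPKM (2.70-fold, 2.44 to 2.99). It was at 29.1, 24.1 and 13.4 RPKM in cytokine medium at P1, P2 and P15 against 19.4, 13.5 and 12.5 in T cell medium, so the gap was small at P15.

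Tvp23a, a Golgi membrane protein, was at 1.10 RPKM in F10 and 9.18 in cytokine medium, and 33.8% of its exons overlap Nubp1, so its reads are uncertain. Leprel1, a collagen prolyl 3-hydroxylase, was at 1.51 and 4.16 RPKM, and 28.4% of its exons overlap another gene. It had a difference of 1.04, the smallest of the 26. Pla1a, a phospholipase, Cdc42ep2, an effector of the GTPase CDC42, and Fstl1, a secreted glycoprotein, complete the 26, and these 3 are named after their values were seen. Pla1a was at 0.413 RPKM in F10 and 2.63 in cytokine medium, Cdc42ep2 at 1.11 and 4.68, and Fstl1 at 30.2 and 64.2. Fstl1 is thus the most abundant of the 26 in cytokine medium, where its fold was 2.13.

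**Figure D3:**
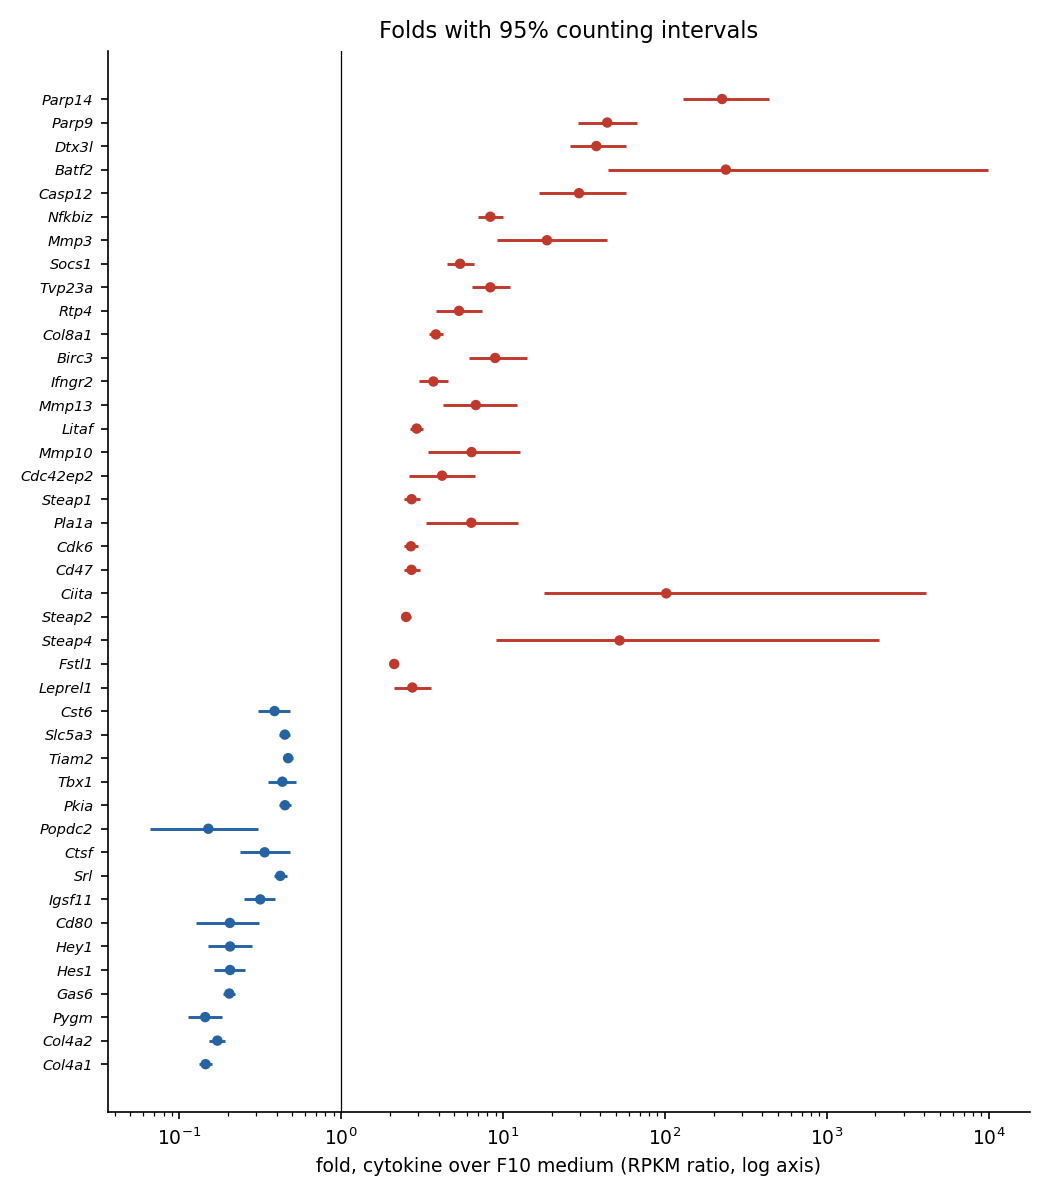
Ratios of RPKM in cytokine to F10 medium at P0, on a log axis, are drawn for the genes at least 2-fold apart, with bars for the 95% interval of counting error. Intervals are wide for genes with few F10 reads (Batf2, 44.4 to 9894) and narrow for abundant ones (Col4a1, 0.133 to 0.159).

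The lower genes began with type IV collagen, the network-forming collagen of basement membranes. Col4a1 was at 36.8 RPKM in F10, 13.1 in T cell and 5.35 in cytokine medium at P0, and the ratio of cytokine to F10 medium was 0.146 (0.133 to 0.159). Col4a2 was at 21.6, 9.42 and 3.72 RPKM, a ratio of 0.172. Col4a1 at P1, P2 and P15 was at 1.86, 3.72 and 10.3 RPKM in cytokine medium and at 9.23, 15.0 and 19 in T cell medium. Col4a2 was at 1.58, 3.22 and 9.02 RPKM in cytokine medium and at 7.82, 12.1 and 16.8 in T cell medium. Both chains were highest in F10 and, at all 4 passages, lower in cytokine medium than T cell medium, and within cytokine medium both were highest at P15. The genes lie head to head on chromosome 8 and their promoter windows share 78 bases, in capitals in the window of Col4a1 (GRCm38.p6, chr8:11312777-11313076, minus strand).
Col4a1: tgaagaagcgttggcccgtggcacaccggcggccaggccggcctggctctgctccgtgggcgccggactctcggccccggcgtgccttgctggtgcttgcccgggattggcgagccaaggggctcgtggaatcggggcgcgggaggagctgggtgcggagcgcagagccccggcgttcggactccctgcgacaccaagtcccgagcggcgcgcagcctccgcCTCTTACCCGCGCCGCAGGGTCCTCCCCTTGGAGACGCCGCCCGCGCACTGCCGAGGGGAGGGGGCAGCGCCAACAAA

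Of 29 basement membrane and matrix genes listed, 8 were measured, and the 2 type IV collagens were lower while Col8a1 and Leprel1 were higher (median -0.35). Ltbp3, which binds latent TGF-β, was at 30.8 RPKM in F10, 21.7 in T cell and 16.5 in cytokine medium (-0.86). Efemp2, an elastic fibre protein, was at 30.7 and 30.1 RPKM in F10 and cytokine medium, with a difference of -0.03. Gas6, the ligand of TAM receptors, was at 87.7 RPKM in F10, 51.3 in T cell and 17.9 in cytokine medium at P0, a ratio of 0.204. At P1, P2 and P15 it was at 12.4, 29.3 and 34.1 RPKM in cytokine medium and at 62.1, 157 and 53.2 in T cell medium. Every cytokine library was below every other library for Gas6.

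Notch targets were lower as well. The list of 21 held 3 measured genes, of which Hes1 and Hey1 were at least 2-fold lower and none higher. Over all 552 genes 2.9% were lower and 4.71% higher. Hes1, a repressor induced by Notch, was at 16.9 RPKM in F10, 11.3 in T cell and 3.48 in cytokine medium at P0, a ratio of 0.206 (0.165 to 0.255). At P1, P2 and P15 it was at 1.08, 2.58 and 4.67 RPKM in cytokine medium and at 14.8, 12.9 and 13.9 in T cell medium. All cytokine libraries were below 5 RPKM and all others above 11. Hey1, a second Notch effector, was at 7.81, 6.42 and 1.61 RPKM at P0 (ratio 0.206, 0.151 to 0.281). It was at 0.534, 0.843 and 1.00 RPKM in cytokine medium at the later passages and at 5.88, 7.59 and 1.84 in T cell medium. The RBPJ motif TGGGAA, which the Notch transcription complex binds, was in 25.56% of all promoters and in 3 of the 11 lower genes with an entry, Cd80, Popdc2 and Tiam2. It was also in 5 of the 17 higher genes with an entry (Casp12, Cdc42ep2, Mmp13, Socs1 and Steap4) and in 25.29% of the members with one, so its share was similar in all of these. In Casp12, both gamma-activated sequences marked above contain TGGGAA, so the motifs share those bases.

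Muscle genes were lower or little different. Of 49 listed, 11 were measured, 3 (Pygm, Srl and Pkia) were at least 2-fold lower and none higher, with a median of -0.45. The shares over all 552 genes were 2.9% lower and 4.71% higher. Pygm, the glycogen phosphorylase of muscle, was at 11.8 RPKM in F10, 12.8 in T cell and 1.70 in cytokine medium at P0, a ratio of 0.145 (0.114 to 0.184). Srl, which encodes the calcium-binding protein sarcalumenin of the sarcoplasmic reticulum, was at 21.9, 50.4 and 9.22 RPKM (ratio 0.421). Popdc2, a membrane protein of heart and muscle outside the list, was at 1.73, 2.35 and 0.262 RPKM (ratio 0.151, 0.0659 to 0.307). For Pygm, Srl and Popdc2 T cell medium was above F10 and cytokine medium was lowest. Pygm was at 0.878, 3.35 and 5.18 RPKM in cytokine medium at P1, P2 and P15 and at 11.6, 29.3 and 8.55 in T cell medium. Srl was at 4.90, 6.89 and 5.03 RPKM in cytokine medium and at 33.4, 63.3 and 5.85 in T cell medium. Both genes differed widely between media at P1 and P2, and the P15 levels of Srl were close. Actn3, which anchors actin filaments in fast fibres, stood at 30.1 RPKM in F10, 86.9 in T cell and 14.7 in cytokine medium, and its difference of -0.99 made it the lower gene closest to 2-fold without reaching it.

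Of the satellite cell and myogenic regulators, 5 of 32 were measured, with 1 lower and none higher. That gene was Tbx1, a transcription factor of craniofacial muscle, at 13.6 RPKM in F10, 8.08 in T cell and 5.88 in cytokine medium (-1.08). Boc, a surface receptor that promotes myogenic differentiation, was at 5.24, 3.29 and 2.60 RPKM (-0.79). Igf2bp2, an RNA-binding protein, was at 28.6 RPKM in F10 and 23.7 in cytokine medium (-0.26), and Vgll3, a cofactor of TEAD factors, at 19.4 and 26.8 (0.45). Their directions were mixed. In the FGF and ERK list 4 genes were measured and none reached 2-fold. Etv5, an ETS factor that reports FGF signalling, was at 13.1 RPKM in F10 and 8.48 in cytokine medium (-0.58).

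The other lower genes span surface, signalling and transport proteins. Cd80, a costimulatory ligand for T cells, was at 5.20 RPKM in F10, 1.05 in T cell and 1.07 in cytokine medium (ratio 0.206), so both other media were low at P0. Igsf11, an adhesion protein of the immunoglobulin family, was at 6.41, 2.43 and 2.03 RPKM (-1.29). Tiam2, an activator of the GTPase RAC1, was at 28.1, 14.4 and 13.2 RPKM (-1.03). Slc5a3, the transporter of myo-inositol, was at 12.2, 4.47 and 5.49 RPKM (-1.03), and Cst6, a cysteine protease inhibitor, at 4.88, 1.42 and 1.90 (-1.02). These 5 genes had T cell and cytokine medium close together and F10 high. Pkia, an inhibitor of protein kinase A, was at 34.6, 51.5 and 15.6 RPKM (-1.10), and the lysosomal protease Ctsf was at 4.49, 4.01 and 1.51 (-1.13), and for these cytokine medium alone was low.

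Most genes of growth and housekeeping lists differed little. Of 54 DNA replication and cell cycle genes, 24 were measured, Cdk6 was the 1 at least 2-fold higher and none was lower, with a median of 0.12. The replicative helicase subunit Mcm4 was at 65.9 RPKM in F10, 68.9 in T cell and 90.0 in cytokine medium (0.44). The polymerase subunit Pola2 was at 22.6, 22.3 and 30.4 (0.41), and the replication factor Cdc45 differed by 0.31. Pold4, a small subunit of DNA polymerase δ, was at 13.1 RPKM in F10 and 6.54 in cytokine medium (-0.91). The DNA replication genes thus included members on either side of 0. In the list of ribosome, translation and proteasome genes 19 were measured and none reached 2-fold (median -0.07). Of the 8 genes of the endoplasmic reticulum none reached 2-fold (median 0.16), and of 15 actin and cytoskeleton genes 1 was lower. Among secreted ligands and growth factors 2 of 15 (Gas6 and Cst6) were at least 2-fold lower and none higher. Of the 14 adhesion and guidance genes 2 (Cd80 and Igsf11) were lower and 1 (Cd47) was higher. Antigen presentation and costimulation split, with Ciita higher and Cd80 lower of 4. None of 5 mesenchyme genes, 1 lipid-binding gene and 2 genes of cholesterol synthesis reached 2-fold. In all, 167 of the 552 genes stand in a list, and 510 lay under 2-fold. The 10 most abundant genes also lay within 2-fold, from the actin-severing protein Cfl1 at 820 RPKM in F10 and 1021 in cytokine medium to the proteasome subunit Psmd2 at 103 and 121.

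**Figure D4:**
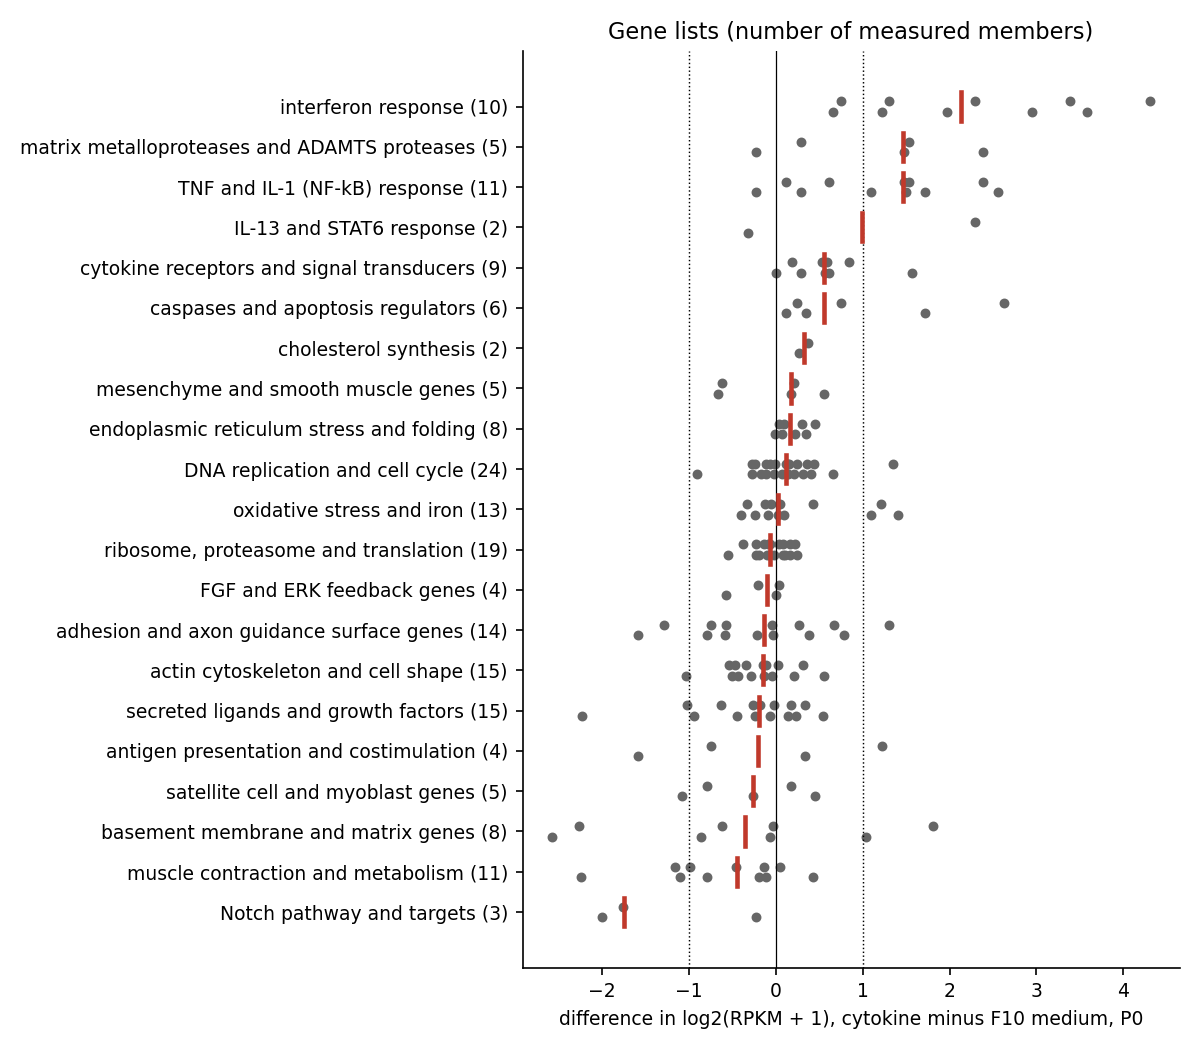
Each point is 1 measured gene, placed by its difference in log2(RPKM + 1), cytokine minus F10 medium at P0, and each line of points is 1 gene list with at least 2 measured genes, with a bar at the list's median. The interferon list lies to the right with a median of 2.13, and the Notch list to the left with -1.75, while the ribosome, proteasome and translation genes have a median of -0.07.

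The later passages gave values from libraries that the comparison at P0 did not use. Of the 26 higher genes, 21 were above T cell medium in cytokine medium at each of P1, P2 and P15, as were 151 of the 552 genes (27.4%). The exceptions were Casp12, Pla1a, Steap1, Steap2 and Steap4. Of the 16 lower genes, 13 were below T cell medium in cytokine medium at each of the 3 passages, as were 135 of the 552 (24.5%). The exceptions were Popdc2, Slc5a3 and Cst6, of which Cst6 was above at every passage. These counts compare cytokine medium with T cell medium and not with F10 medium, which was not grown at later passages in the libraries analysed here.

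The thresholds were narrow in places. Casp4 entered the 552 genes with a highest value of 1.03 RPKM and Atp13a5 was left out with 0.997. On chromosome 16 the last gene inside the limit was Slc5a3, so its place among the lower genes rests on the limit being right.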

How the data were processed

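RNA of 9 libraries of mouse satellite cells was measured by sequencing, 1 library per medium and passage, and 2 libraries were compared here. The authors deposited RPKM values for 11148 rows, with 2 numbered columns per library, per the file headers. TopHat2 2.0.1, HTSeq 0.5.4p2 and mm10 are named per the submitters' processing notes, without roles. The annotation, the strand setting and the meaning of the numbered columns were not given in the sources used here. Without strand, reads of overlapping genes on opposite strands cannot be told apart.

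Identifiers were matched to GENCODE vM21 on mm10 (11105 of 11148), and a gene counted as inside a stretch when its end lay below the limit. Outside these stretches the row names went against the values, and an error of names inside them was tested only by the shares at 1 RPKM. RPKM keeps no count, but its low values are whole multiples of 1 read, and whole reads were found within 0.03 of a read in 9275 of 9276 rows. They served for depth and intervals, which use the mean reads of both columns. With 1 library per group there is no residual spread, so no count model was run. Values were taken as log2(RPKM + 1), on which low genes differ by less than their ratio, and 2-fold is a difference of 1. PCR reads without molecular identifiers are not independent molecules, so intervals and floors cover counting error only.

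The named genes are the 15 with the largest difference each way, every usable gene in a fixed pathway or marker list, and the 10 most abundant. The members and lists were chosen with earlier results of these data known. Some genes stand in more than 1 list, so counts of different lists are not separate results. Alternatives covered the pseudocount, the filter, each column alone, the scaling and the set of rows. The steps were checked on simulated data. Promoters came from RefSeq (GRCm38.p6). Python 3.11.15, numpy 2.4.6, pandas 2.3.3, scipy 1.17.1 and matplotlib 3.10.9 were used.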

Additional observations from a re-analysis of the deposited data

How the results depend on the processing

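The counts of 26 higher and 16 lower genes stayed within 1.5 times under no filter, minimums of 1 and 5 RPKM in the libraries compared, either column alone, 3 other scalings and the removal of 9 rows whose names differ or are shared. With a pseudocount of 0.1 RPKM the counts were 32 and 29, so the share of higher genes among those past 2-fold was 52.5% in place of 61.9%. With a pseudocount of 5 RPKM they were 14 and 5 (73.7% higher), and 20 genes named by the rules above were no longer 2-fold apart. Pla1a, Cdc42ep2 and Fstl1, named after their values were seen, are not in that count. By construction, a larger pseudocount shrinks low genes. Fewer genes entered without chromosome 16 (11 higher and 9 lower of 232), with chromosome 16 only (15 and 7 of 320) and without genes that share exons with another gene (16 and 10 of 324). This last alternative and the removal of renamed rows were chosen after seeing the data. No named gene past 2-fold changed sign under any of these settings. No paired analysis was possible because each medium had 1 library at P0, and no library could be left out. Precision was limited most for genes with few F10 reads, such as Batf2, Ciita and Steap4.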

Other observations

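For 3 members of the marker and ligand lists, levels in some of the other libraries are set beside the values at P0. Their remaining libraries are not given, so no level here is called particular to a medium or passage. Ctsw, a cysteine protease of cytotoxic lymphocytes, was at 3.32 RPKM in F10 and 1.26 in cytokine medium at P0, 0.157 in T cell medium at P0, and 0.485, 0.107 and 0 in cytokine medium at P1, P2 and P15. Of these libraries F10 medium had the highest level. Stmn2, a microtubule regulator of neurons, was at 2.36 RPKM in F10, 0.777 in T cell and 0.799 in cytokine medium at P0, and at 22.3 and 38.0 in cytokine medium at P2 and P15. Sema3d, a secreted guidance cue, was at 1.44 RPKM in F10 and 0.265 in cytokine medium, and at 4.09 in T cell medium at P0 and 26.0 at P2.

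Surface and junction genes under 2-fold went in either direction. Cxadr, a junction protein and virus receptor, was at 4.17 RPKM in F10 and 7.25 in cytokine medium (0.67), and Emp2, a membrane protein that affects integrins, at 14.2 and 25.2 (0.79). Jam2, a junction adhesion molecule, was at 17.3 and 11.1 RPKM (-0.59), and Cd200, an inhibitory surface ligand for myeloid cells, at 19.3 and 11.1 (-0.74). None of these 4 genes reached 2-fold.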
